A study of Mus musculus with 10 samples.

Results

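The genes that encode the proteins of the cytosolic ribosome were followed across 5 mouse lines. They were taken from the table by symbol, as *Rpl* or *Rps* with a number and at most the letter a or x, *Rplp0* to *Rplp2* and *Rpsa*. This gave 76 of the 18901 genes listed, 46 of the large subunit and 30 of the small subunit. The rule used names only and no measured value. RNA with poly(A) tails was sequenced in 10 libraries, 2 per line, all from a cross of mf1 and 129. Oct4/GFP MEF, embryonic fibroblasts with a fluorescent *Oct4* reporter, were sampled at passages 2 and 4 in DMEM with FCS. Passages 5 and 25 were sampled from 4 reprogrammed lines: pre-iPS, which had not completed reprogramming, 'control' iPS, and clones 1 and 2 of 'rNetrin-1-derived' iPS. The iPS lines grew in KSR and LIF medium. All reprogrammed lines came from MEF infected with *Oct4*, *Sox2*, *Klf4* and *c-Myc* retroviruses, and the clones from cultures that also received recombinant Netrin-1. Each line stands for 1 clone or culture, and its 2 passages are repeated samples of it, so that the p-values below compare these lines and not independent derivations. Cell type, culture medium, retroviral infection and passage differ together between MEF and the other lines and cannot be told apart.

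The ribosome is built from ribosomal RNA and one copy of most ribosomal proteins in a small subunit, which reads the message, and a large subunit, which joins amino acids. The genes of these proteins are found on many chromosomes and are among the most strongly transcribed genes of growing cells. Their messages begin with a run of pyrimidines, the terminal oligopyrimidine (TOP) tract, through which the mTOR pathway controls their translation. The transcription factor Myc is known to act on ribosomal protein genes and on the factors that assemble ribosomes in the nucleolus.

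The stretches shown here, 6 in number, lie around transcription starts and were chosen by the log2 fold change in MEF. They belong to the 3 most and the 3 least lowered genes in MEF among those with over 1000 reads and a single promoter entry. Each holds 60 bases before and 20 bases from the start that RefSeq lists (GRCm38.p6), and capitals mark the longest run of C and T where it has at least 8 bases.
Rpl7a, chr2:26910747-26910826, plus strand: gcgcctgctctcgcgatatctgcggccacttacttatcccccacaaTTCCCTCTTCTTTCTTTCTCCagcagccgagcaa
Rpsa, chr9:120127706-120127785, plus strand: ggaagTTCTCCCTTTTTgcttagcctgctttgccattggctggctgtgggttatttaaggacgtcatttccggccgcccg
Rps25, chr9:44407654-44407733, plus strand: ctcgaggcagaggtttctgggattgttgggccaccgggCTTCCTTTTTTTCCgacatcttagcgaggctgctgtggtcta
Rpl23, chr11:97782420-97782499, minus strand: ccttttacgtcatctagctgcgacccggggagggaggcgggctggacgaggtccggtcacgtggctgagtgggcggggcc
Rpl10, chrX:74270756-74270835, plus strand: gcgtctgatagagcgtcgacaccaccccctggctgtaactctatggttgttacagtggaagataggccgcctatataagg
Rpl41, chr10:128549149-128549228, minus strand: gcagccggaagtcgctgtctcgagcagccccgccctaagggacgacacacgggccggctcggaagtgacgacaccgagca
The longest runs have 21 bases in *Rpl7a*, 12 in *Rpsa* and 14 in *Rps25*, against 6 in *Rpl23*, 6 in *Rpl10* and 4 in *Rpl41*. In *Rpsa* and *Rps25* the run lies wholly within the 60 bases before the listed start, and in *Rpl7a* it spans the start. A marked run is thus not the same as a TOP tract, which opens the message. RefSeq promoters were at hand for 56 of the 76 genes, in 66 entries. A run of at least 8 pyrimidines stood in these 80 bases in 60.6% of the 66 entries and in 31.2% of all 32851 promoters. Over the 46 genes with 1 entry and over 1000 reads, the difference seen in the 6 examples was small: MEF differed from iPS by a median of -0.53 on the log2 scale in the 28 genes with such a run and of -0.44 in the 18 without. Spearman's rho between the length of the run and the log2 fold change was -0.30 across these 46 genes, which share their libraries. In the full 300 bases, on either strand, CGGAAG, the core that ETS factors bind, was found in 62.1% of the 66 entries and in 16.9% of all promoters. The letters CTCTTTC were found in 30.3% and 8.16%, the Myc E-box CACGTG in 12.1% and 7.15%, and the TATA box TATAAA in 9.09% and 13.6%. None of these 4 motifs contains another.

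The libraries held 38110410 to 52946858 reads on genes. At this depth counting error was small beside the spread between libraries for all but 4 of the 76 genes. Reads on the 76 genes made up 4.61% and 4.66% of all reads in MEF and 8.40 to 9.26% in the 8 reprogrammed libraries, with 95% Wilson intervals of at most 0.009 percentage points on either side, which cover counting error only. In MEF the top 20 genes of a library held 14.1 to 14.6% of its reads, as against 7.16 to 7.95% elsewhere. The labelled cell types were checked against their markers. The 7 fibroblast markers summed to 2831209 and 2974003 in MEF and to 18633 to 33053 in the other lines. Per the paper, pre-iPS and iPS cells were kept either on gelatin or on a layer of irradiated MEF. The part of such feeder cells in the sums of the other lines was not tested. The 6 pluripotency markers summed to 120 and 121 in MEF and 10709 or more elsewhere, and in the pre-iPS line 4 of the 6 were above 100. The largest part of the pre-iPS sum was *Zfp42*, with 6512 and 6101. *Nanog* had 311 and 349 in pre-iPS against 2489 to 7441 in iPS. *Esrrb* had 31.6 and 15.4 against 900 to 7387, and *Dppa3* 8.16 and 4.8 against 436 to 1646. By limma, 4 of the 6 were lower in pre-iPS than in iPS at an adjusted p under 0.05, all but *Zfp42* and *Fgf4*. The 7 macrophage markers summed to 12693 and 12716 in MEF and to 433 to 1659 elsewhere, and 6 of the 7 were higher in MEF than in iPS. The part of such cells in the results on ribosomal protein genes was not tested. In bulk RNA, a difference in the mix of cells and a difference in RNA per cell cannot be told apart.

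The unit of the values is the authors' pseudo-count, a read count brought to a common library size by edgeR. Per kilobase of transcript, the highest levels over the 6 iPS libraries were those of *Rplp1*, a protein of the ribosomal stalk, with 149744 ± 8486 (SD, n = 6), *Rps12* with 145071 ± 7730 and *Rps2* with 138954 ± 5036. *Rplp1* and *Rps12* differed by less than 1 SD. The order depends on the length used: with all annotated exons of a gene, *Rps12* moved from rank 2 to 21, and with unshared stretches alone *Rps12* was first, *Rps2* moved from rank 3 to 7 and *Rplp1* from 1 to 14. The set holds 4 genes that stood far below the rest in every library. *Rpl26* had 0 to 4 reads, *Rpl30* 48 to 119, *Rpl34* 91 to 230 and *Rps27* 47 to 96, whereas no other member fell below a value of 8826. Per kilobase, the lowest 3 in the iPS libraries were *Rpl26* with 5.06 ± 3.24, *Rpl30* with 181 ± 14.7 and *Rps27* with 192 ± 41.3 (SD, n = 6). Each encodes a core protein of the ribosome. Stretches of 50 bases, the length of a read, that also occur in transcripts of other genes made up 98.6% of the *Rps27* transcript, where the near-copy *Rps27rt* holds them, 76.4% of *Rpl30*, 71.3% of *Rpl26* and 50.6% of *Rpl34*. Among genes with high values it was 95.1% in *Rpl35*, 93.3% in *Rpl9* and 92.1% in *Rpl10*. How the authors' counting treated reads with several matches was not tested, and the values of these 4 genes are not read as their expression. More of the transcript was shared in this way than not in 46 of the 76 genes, so that levels of single members are uncertain where reads were split.

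**Figure D1:**
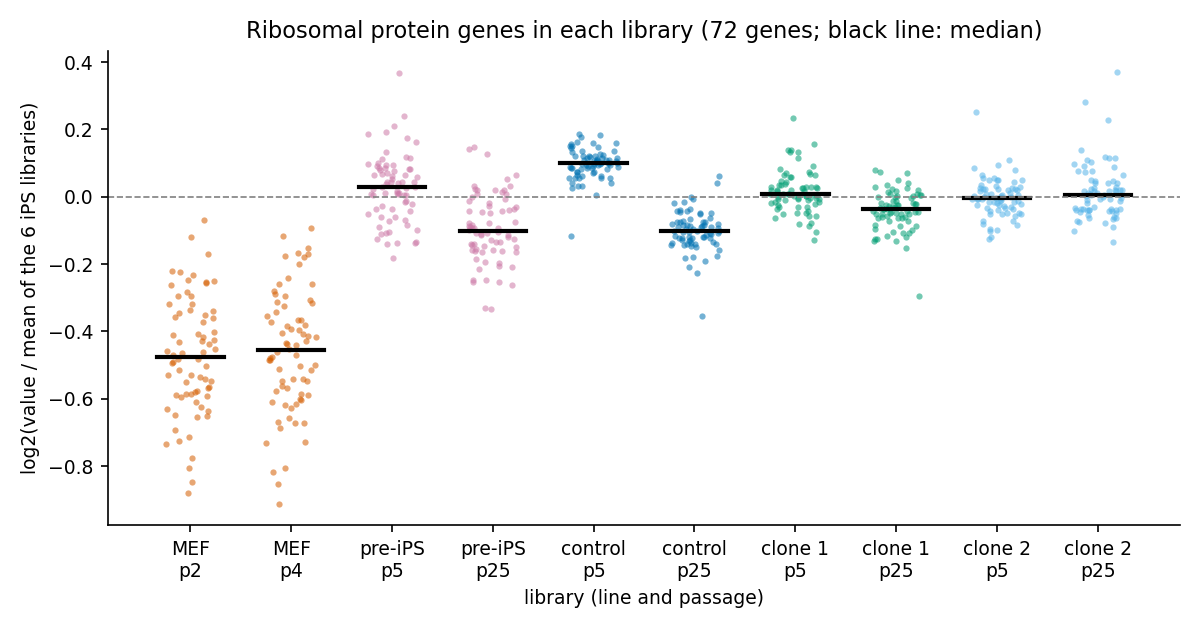
Each dot is 1 of the 72 ribosomal protein genes with over 1000 reads, drawn as the log2 of its value over its mean in the 6 iPS libraries (vertical axis), for each library by line and passage (horizontal axis). Black lines are medians, at -0.48 and -0.46 in MEF and between -0.10 and 0.10 in the 8 other libraries.

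MEF were set against the 3 iPS lines, each weighted equally, to ask how these genes differ between the cells at the start and at the end of reprogramming. Nearly the whole set was lower in MEF. In *Rpl8*, a large subunit protein at the peptidyl transferase centre, the values were 42346 and 41378 in MEF and 73457 to 84525 in iPS, with a median of 77228. The MEF libraries lay below all iPS libraries, and the difference was -0.89 ± 0.07 (log2 fold change ± SE; adjusted p by limma = 5.90e-06). *Rpl7a* had 38209 and 38072 in MEF and 64718 to 75969 in iPS, median 68032 (log2 fold change -0.85 ± 0.07, adjusted p = 3.48e-06). *Rpsa*, which also serves as a laminin receptor, had 67742 and 67254 in MEF and 111420 to 125976 in iPS, median 118653 (-0.81 ± 0.07, adjusted p = 9.19e-06). The groups did not overlap in these genes, and the MEF libraries differed from each other far less than from iPS. *Rpl36* followed with -0.79 ± 0.08 and *Rps27a*, made as a fusion with ubiquitin, with -0.73 ± 0.10.

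Of the 75 genes that passed the filter (all but *Rpl26*), 68 were lower in MEF at an adjusted p under 0.05 and 0 were higher. Over all 17075 genes tested, 41.9% were lower and 37.4% higher. Both MEF libraries lay below all 6 iPS libraries in 71 of the 75 genes, against 41.9% of all genes. The exceptions were *Rpl10*, *Rpl39*, *Rpl41* and *Rps27*. The size of the differences was modest: 0 of the 68 differed by 1 or more on the log2 scale, a mark passed by 48.2% of all genes in either direction. The median log2 fold change was -0.47, with quartiles at -0.58 and -0.33, whereas all genes had quartiles at -1.12 and 0.83 around a median of -0.09. Small subunit genes had a median of -0.50 (29 of 30 lower) and large subunit genes of -0.44 (39 of 45 lower). The scaling of the libraries sets this size. The deposited values sum to 56073322 and 55886953 in MEF and to 39745507 to 41892877 in the other libraries. With equal library totals, 74 genes were lower and 27 of them by at least 1, with a median of -0.92 for the set and -0.53 for all genes. The median of the set minus that of all genes was -0.38 in the deposited scale and -0.39 with equal totals, but -0.94 with quantile normalization, under which 72 genes were lower, 31 of them by at least 1, and 1, *Rps27*, was higher.

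**Figure D2:**
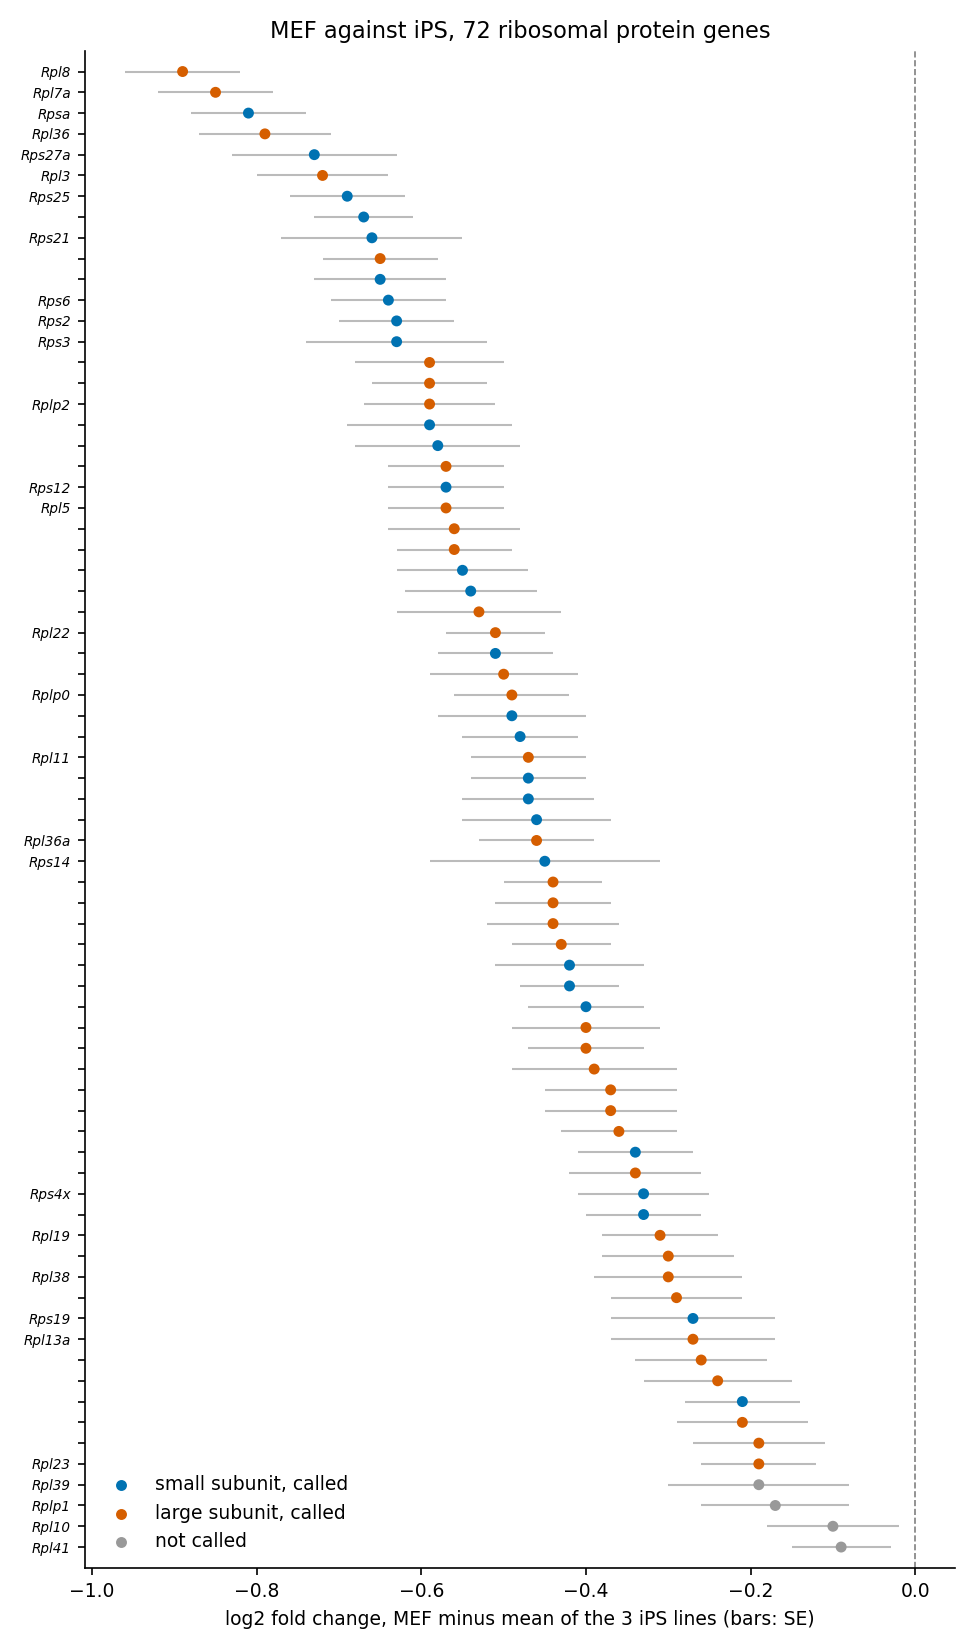
Log2 fold change of MEF against iPS, the 3 lines averaged (horizontal axis, bars show the SE of the fit) for the 72 genes with over 1000 reads, ordered by size (vertical axis, with names for genes the text describes) and coloured by subunit. All points lie below 0, from -0.89 for *Rpl8* to -0.09 for *Rpl41*, and 4 were not called.

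Several members have known roles outside or at the edge of the ribosome. *Rps6*, the target of the S6 kinases, had 50945 and 51903 in MEF and a median of 79988 in iPS (log2 fold change -0.64 ± 0.07, adjusted p = 4.65e-05). *Rpl5* and *Rpl11*, which bind Mdm2 when ribosome assembly is disturbed, were lower by -0.57 ± 0.07 and -0.47 ± 0.07. *Rpl3*, at the catalytic centre, and *Rps3*, at the mRNA entry and also a DNA repair protein, had -0.72 ± 0.08 and -0.63 ± 0.11. *Rplp0* and *Rplp2* of the stalk had -0.49 ± 0.07 and -0.59 ± 0.08. *Rplp1*, their partner, had 66378 and 65982 in MEF and 70416 to 81897 in iPS, with a log2 fold change of -0.17 ± 0.09 that did not pass the test (adjusted p = 0.115). Smaller falls were found for *Rps19* (-0.27 ± 0.10) and *Rps14* (-0.45 ± 0.14), genes lost or mutated in anaemias, for *Rpl38* (-0.30 ± 0.09), which is needed to translate *Hox* messages, and for *Rpl13a* (-0.27 ± 0.10). *Rpl22* had -0.51 ± 0.06.

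The X chromosome holds 4 members. *Rps4x* (-0.33 ± 0.08) and *Rpl36a* (-0.46 ± 0.07) were lower in MEF. *Rpl10*, which joins the large subunit late, had 50688 and 51657 in MEF and 50969 to 59562 in iPS (-0.10 ± 0.08, adjusted p = 0.237), and *Rpl39* had 24866 and 26552 against 23330 to 38495 (-0.19 ± 0.11, adjusted p = 0.150). In both, the groups overlap. *Rpl41*, which encodes the smallest protein of the set, had 54143 and 52404 in MEF and 53018 to 59322 in iPS (-0.09 ± 0.06, adjusted p = 0.216). The remaining genes that were not called were *Rpl30*, *Rpl34* and *Rps27*, all at trace values. *Rps27* was the one member with a positive difference (88.6 and 84.5 in MEF, 48.2 to 85.2 in iPS; 0.41 ± 0.27, adjusted p = 0.194). A list of ribosomal protein genes whose names fall outside the rule was lower in MEF in 4 of 4 genes, with a median of -0.39. Among all genes 41.9% were lower.

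The machinery around the ribosome was also lower in MEF, and ribosome assembly more than the ribosomal proteins themselves. The counts are read against the shares of all genes, 41.9% lower, 37.4% higher and 48.2% called with 1 or more on the log2 scale. Of 35 genes of ribosome biogenesis, 34 were lower and 0 higher, with a median of -1.32, and 25 of them differed by 1 or more on the log2 scale. *Dkc1*, the pseudouridine synthase of ribosomal RNA, fell by 2.10 on the log2 scale (SE 0.06) and the nucleolar *Rrp1b* by 1.95 (SE 0.06). *Sbds* was the exception with 0.10 ± 0.10. Of 76 mitochondrial ribosomal protein genes, 56 were lower and 4 higher, with a median of -0.48. Of 18 translation factors and other genes with TOP messages, 11 were lower and 2 higher, with a median of -0.37. The 2 higher genes were *Eif3e* (0.19 ± 0.07) and *Vim*, the fibroblast intermediate filament (2.85 ± 0.18), and the elongation factor *Eef1a1* had -0.11 ± 0.10 (adjusted p = 0.351). *Myc* was read at 2594 and 2481 in MEF and at 44613 to 88310 in iPS, a log2 fold change of -4.46 ± 0.10. These reads include any RNA of the *c-Myc* retrovirus, which cannot be told apart from the cell's own gene here. Whether *Myc* has a part in the difference of the ribosomal protein genes was not tested.

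**Figure D3:**
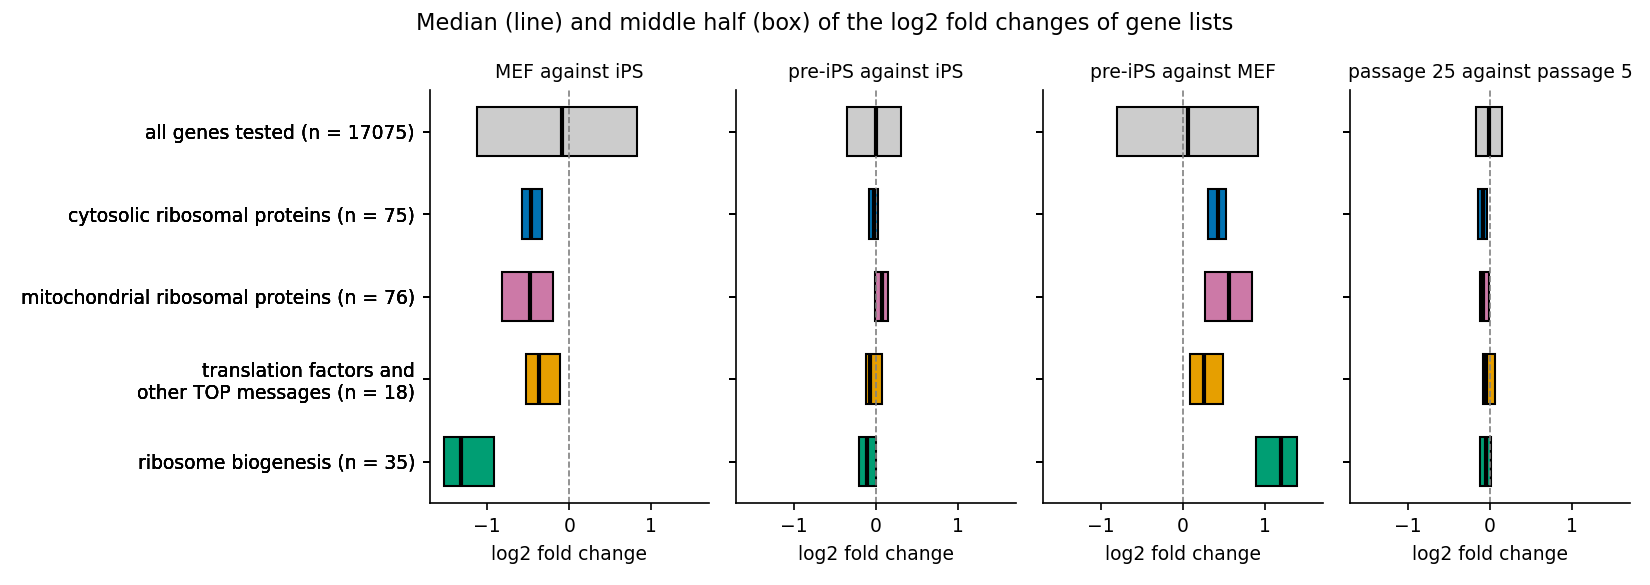
Median (line) and quartiles (box) of the log2 fold changes (horizontal axes) of all genes tested and of 4 gene lists (rows) in 4 comparisons (panels). In MEF against iPS the medians are -0.47 for the cytosolic ribosomal proteins and -1.32 for ribosome biogenesis, and in pre-iPS against iPS every list has a median between -0.11 and 0.07.

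The pre-iPS line was compared with the iPS lines to ask whether the level of these genes had been reached without full pluripotency. The ribosomal protein genes of pre-iPS cells were close to those of iPS cells. *Rplp0* had 173693 and 168384 in pre-iPS and 139029 to 161881 in iPS. Both pre-iPS libraries were above all iPS libraries, with a log2 fold change of 0.17 that did not pass the test (adjusted p = 0.0835). *Rpl19*, a large subunit protein that bridges the subunits, had 66567 and 62453 against 53479 to 58953 and was higher by 0.20 ± 0.07 (adjusted p = 0.0469). It was the only one of 75 genes called higher, and 0 were lower, against 18.7% higher and 20.8% lower among all genes. The median was -0.03, and the 72 genes with over 1000 reads lay between -0.19 and 0.20. The lowest value of the set, -0.54, was that of *Rpl30*, a gene at trace values. The call of *Rpl19* was lost without either pre-iPS library (adjusted p = 0.258 and 0.0776), and in 11 of 21 alternatives in all, among them edgeR, under which 0 of 75 genes were called, and a fit on these lines alone. DESeq2 called 2 genes higher and 3 lower. With the passage as a block, 1 gene was higher and 1 lower.

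Neighbouring lists are read against the same shares of all genes, 18.7% higher and 20.8% lower. In ribosome biogenesis 11 of 35 genes were lower and 1 higher in pre-iPS (median -0.11), in translation factors 3 of 18 were lower and 0 higher (median -0.07), and of the mitochondrial ribosomal protein genes 6 of 76 were higher and 3 lower (median 0.07). Of the 4 genes outside the rule, 0 were called. *Myc* was read at 126813 and 139917 in pre-iPS, above all iPS libraries (log2 fold change 1.25 ± 0.10, adjusted p = 3.55e-05). Here, too, reads of the *c-Myc* retrovirus are included, and per the paper the retroviral transgenes are not silenced in pre-iPS cells. The part of *Myc* in the level of the ribosomal protein genes was not tested.

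Pre-iPS cells against MEF share libraries with both comparisons above, so the values are given side by side and not as separate support. Of 75 genes, 61 were higher in pre-iPS and 0 lower, against 36.4% higher among all genes. The median was 0.42, against 0.06 for all genes. On the log2 scale 0 of the 61 reached 1, a mark passed by 7383 of all 17075 genes in either direction. The 5 largest rises were those of *Rpsa* (0.81 ± 0.09), *Rpl36* (0.78 ± 0.09), *Rpl8* (0.76 ± 0.09), *Rpl3* (0.73 ± 0.10) and *Rpl7a* (0.72 ± 0.08). In *Rpsa* the pre-iPS libraries had 121925 and 115536, within the range of the iPS libraries. *Rpl41* had 55391 and 51783 and overlapped with MEF (0.01 ± 0.08, adjusted p = 0.941). Biogenesis genes were higher in 34 of 35, with a median of 1.19, and mitochondrial ribosomal protein genes in 57 of 76, with 2 lower and a median of 0.56. Of the translation factors 10 of 18 were higher and 2 lower (median 0.25), and of the 4 genes outside the rule 3 were higher. With equal library totals 73 genes were higher, 15 of them by at least 1, and the median was 0.86. That scaling moves all genes between MEF and the other lines, as given above for MEF against iPS. The larger numbers are therefore not read as particular to the set.

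The 'rNetrin-1-derived' clones were compared with the 'control' line to ask whether rNetrin-1 in the reprogramming culture left a mark on these genes. None was found in these lines. The 'control' is 1 line, so an effect of rNetrin-1 and a difference between clones cannot be told apart. Of 75 genes, 0 were called by limma, edgeR and DESeq2 alike, against 4.08% of all genes by limma, and 1 had an unadjusted p under 0.05 by limma. The median log2 fold change was -0.01, and the 72 genes with over 1000 reads lay between -0.10 and 0.32. In *Rps6* the values were 84180 and 73751 in the 'control' line, 81019 and 78958 in clone 1, and clone 2 had 78268 and 84396. The 2 passages of the 'control' line differed more than the lines. With the passage as a block 0 genes were called, too.

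The gene with the low p was *Rpl39*, which lines the exit tunnel for the new protein. It had 27481 and 23330 in the 'control' line, 29646 and 24305 in clone 1, and clone 2 had 35506 and 38495. Both clone 2 libraries were above all others of the 10. Against the 'control' line clone 2 differed by 0.55 ± 0.14 on the log2 scale (adjusted p = 0.0670), and against clone 1 by 0.46 (adjusted p = 0.149). The difference from the 'control' line passed the test with the passage as a block (adjusted p = 0.0271), with quantile normalization (0.0269) and by DESeq2 (0.00661). By DESeq2 it was also the one gene called between the clones (0.0450). Over the 644 tested genes of the X chromosome, where *Rpl39* lies, clone 2 differed from the 'control' line by a median of 0.13, while the other X-linked members *Rps4x*, *Rpl10* and *Rpl36a* lay between both passages of the 'control' line (68447 and 69740 against 61162 and 72601 in *Rps4x*). Whether the number of X chromosomes differs between the lines was not tested. Between the clones 0 of 75 genes were called by limma and edgeR and 1 by DESeq2, against 1.59% of all genes by limma, with 2 at an unadjusted p under 0.05 and a median of 0.01.

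Passage 25 was compared with passage 5 within the 4 lines that have both. Of the small subunit, 3 genes fell. *Rps14* went from 65834 to 47680 in pre-iPS, from 53027 to 43592 in the 'control' line, from 60026 to 47335 in clone 1 and from 53391 to 48878 in clone 2. Its log2 fold change was -0.30 ± 0.07 (adjusted p = 0.0303). *Rps21* went from 25303 to 20961, 29447 to 23620, 27681 to 24682 and 28163 to 24541 in the same order (-0.24 ± 0.05, adjusted p = 0.0273), and *Rps27a* from 47362 to 39588, 50576 to 42836, 51686 to 43196 and 48804 to 45846 (-0.21 ± 0.05, adjusted p = 0.0482). All of these were lower at passage 25 in 4 of 4 lines, and in each gene the passages did not overlap.

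These were 3 of 75 genes lower and 0 higher, against 7.63% lower among all genes, so that the count is not above the background. The shift of the set was small and uneven across the lines. The median was -0.09 over the 4 lines, against -0.01 for all genes. A negative sign was found in 66 of 75 genes, against 8929 of all 17075. By line, the medians were -0.20 in the 'control' line (72 of 75 lower), -0.10 in pre-iPS (67 of 75), -0.04 in clone 1 (53 of 75) and 0.00 in clone 2 (37 of 75). Over all genes they were -0.03, -0.01, -0.03 and -0.01 in the same order, so that clone 1 was close to all genes. Leaving out either library of the 'control' line, of clone 1 or of pre-iPS left 0 genes called. Quantile normalization also left 0, with a median of -0.03, whereas DESeq2 called 6 lower. The other lists showed like sizes, with medians of -0.05 for biogenesis (4 of 35 lower, 1 higher), -0.05 for translation factors (2 of 18 lower, 0 higher), -0.08 for mitochondrial ribosomal proteins (5 of 76 lower, 2 higher) and -0.14 for the genes outside the rule (0 of 4 called).

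Paralogs are second copies of ribosomal protein genes, some of them known mainly from germ cells or single tissues, and they took several courses. Of 9 paralogs listed 8 were in the table, with *Rps4l* listed under its older symbol *Rps4y2* (RefSeq calls it a transcribed pseudogene, on chromosome 6) and *Rps27rt* not used here. *Rpl10l* is a copy of the X-linked *Rpl10* without introns that stands in for it in male meiosis. It had values of 0.0226 and 1.05 in MEF (0 and 1 reads) and of 3.06 and 2.88 in pre-iPS (3 and 3 reads). In iPS its values were 672 and 884 in the 'control' line, 300 and 295 in clone 1 and 1104 and 1925 in clone 2. *Rpl39l*, known from the testis, had 125 and 133 in MEF, 4.08 and 3.84 in pre-iPS, and 994 and 944, 449 and 334, and 764 and 1573 in the 3 iPS lines in the same order. Thus *Rpl10l* was near 0 in both MEF and pre-iPS, and *Rpl39l* was lowest in pre-iPS. On the log2(value + 1) scale pre-iPS differed from iPS by -7.45 ± 0.31 in *Rpl10l* (adjusted p = 3.06e-06) and by -7.23 ± 0.26 in *Rpl39l* (adjusted p = 2.30e-06), values that depend on the added 1. Of the transcript of *Rpl10l*, 7.6% was shared with other genes at 50 bases.

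**Figure D4:**
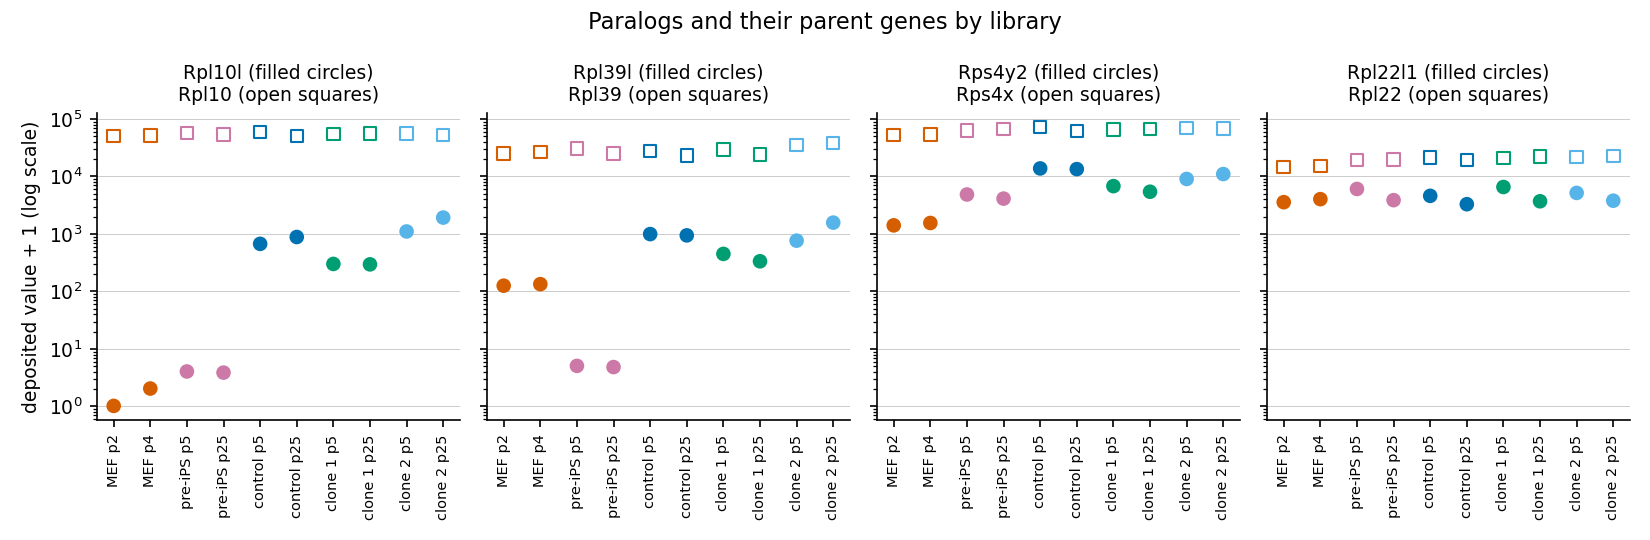
Deposited values plus 1 on a log axis (vertical) of 4 paralogs (filled circles) and their parent genes (open squares) in each library by line and passage (horizontal). *Rpl10l* and *Rpl39l* rise to between 295 and 1925 in the iPS libraries from 4.08 or less in pre-iPS, while *Rpl10* stays between 50688 and 59562 and *Rpl39* between 23330 and 38495.

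*Rps4y2* rose in steps from MEF (1410 and 1551) over pre-iPS (4856 and 4121) to iPS (13792 and 13421 in the 'control' line, 6788 and 5422 in clone 1, 9053 and 11007 in clone 2). It was lower by 2.66 ± 0.11 in MEF and by 1.07 ± 0.11 in pre-iPS than in iPS, on the log2 scale, where *Rps4x* differed by -0.33 in MEF. The remaining paralogs followed other courses. *Rpl3l*, known from muscle, was at 58.2 or less throughout. *Rpl7l1* and *Rpl36al* were lower in MEF by 0.86 ± 0.06 and 0.70 ± 0.06, and *Rpl22l1* (-0.21 ± 0.25) and *Rps27l* (-0.07 ± 0.08) were not called. In all, 6 of 8 paralogs were lower in MEF than in iPS, and 4 of 8 lower in pre-iPS, with medians of -1.56 and -0.56. Among all genes 41.9% were lower in MEF and 20.8% in pre-iPS. Between passages *Rpl22l1* fell in all 4 lines, from 6059 to 3870, 4600 to 3290, 6557 to 3700 and 5171 to 3786 (log2 fold change -0.60 ± 0.07, adjusted p = 0.00498), whereas its parent *Rpl22* had 0.01 ± 0.05. Of the 8 paralogs, 1 was lower in the clones than in the 'control' line, *Rps4y2* (-0.81 ± 0.12, adjusted p = 0.0105). Among all genes 4.08% were called in either direction.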

How the data were processed

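RNA-Seq values of 18901 genes in 10 libraries were used. The authors deposited them as a signal per gene, edgeR pseudo-counts, which are read counts brought to a common library size. Per the labels, libraries were made with the TruSeq RNA kit V2, pooled and read as 50-base single reads in 1 lane. The submitters' processing notes name mm10, CASAVA 1.8.2, FastQC, TopHat2 2.0.8b, HTSeq 0.5.3p9 and edgeR, and the settings of the counting are not given in the sources used here. Lines and passages came from the labels. Whole reads were recovered from the pseudo-counts for 99.96 and 98.63% of values in MEF and 100% in the other libraries (within 0.1 read). For MEF this assumed a common dispersion of 0.000407.

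Tests covered the 17075 genes that reached 10 in 2 or more libraries, with limma 3.58.1 in R 4.3.3 on log2(value + 1), with a trend, 1 mean per line and Benjamini-Hochberg adjustment over all genes. The passage comparison used 8 libraries with the line as a block. A gene was called at an adjusted p under 0.05. The study names no test for these data. Alternatives were pseudocounts of 5 and 0.5, no filter, a mean of at least 50, quantile normalization, scaling to the median of the other genes, only the lines compared, the passage as a replicate block, leaving out each library, and edgeR 4.0.16 (quasi-likelihood test, TMM) and DESeq2 1.42.0 on the recovered reads, which called 13429 and 13262 genes between MEF and iPS, against 13546 by limma. Equal library totals and the set without its 4 genes at trace values were added after the data had been seen. Passage numbers paired the libraries of the pre-iPS and iPS lines: deviations from the line means correlated at 0.235 to 0.504 in all 6 pairs of lines. MEF has other passages.

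Positions, transcripts and shared 50-base stretches were taken from GENCODE M21 (GRCm38), and promoters from RefSeq (GRCm38.p6). Members on chromosome 18 were left out of the printed starts and of the relation with pyrimidine runs. No genome was used, so stretches shared with sequence outside annotated transcripts were not counted. Lengths are those of the shortest principal coding transcript. Genes named are the 5 (or 3) called members with the largest changes in each direction, a list of members with known roles, and the highest and lowest per kilobase. The other lists were translation factors and TOP messages, biogenesis, mitochondrial ribosomal proteins, genes outside the rule, paralogs, *Myc* and markers. The members and lists were chosen with earlier results of these data known. The limma test of MEF against iPS was tried on simulated counts of independent libraries. The simulation covered no other test and did not model repeated passages of a line. Some results on single genes are not reported here.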

Additional observations from a re-analysis of the deposited data

Results flagged for a closer look

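Clone 2 differed from clone 1 in 2 of the paralogs of ribosomal protein genes, by the test of the clones against each other. That test called 1.59% of all genes. *Rpl10l* was higher in clone 2 by 2.29 on the log2 scale (SE 0.39, limma, adjusted p = 0.0334), with 1104 and 1925 against 300 and 295. *Rps4y2* was higher by 0.72 (SE 0.14, adjusted p = 0.0472), with 9053 and 11007 against 6788 and 5422, and against the 'control' line it was lower in clone 1 by 1.17 (adjusted p = 0.00803) and differed by -0.45 in clone 2 (adjusted p = 0.124). The pluripotency markers differed between the clones as well, with sums of 35978 and 42699 in clone 2 and 12180 and 18431 in clone 1, and their part in these differences was not tested.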

How the results depend on the processing

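The fall of the ribosomal protein genes in MEF kept its direction in 21 of 21 alternatives, with 55 to 74 of 75 genes called and medians between -0.95 and -0.39. The rise from MEF to pre-iPS kept it in 20 of 20, with 48 to 73 called and medians between 0.36 and 0.96. Quantile normalization called 1 gene, *Rps27*, higher in MEF. In pre-iPS against iPS, where 1 gene was called, 0 were called with a pseudocount of 5, with only the lines compared and by edgeR, 2 with the passage as a replicate block, 3 with equal library totals and 5 by DESeq2. Leaving out single libraries gave 0 to 2. Between the clones DESeq2 called 1 gene in place of 0. For passage 25 against passage 5, where 3 were called, quantile normalization and the fit without the line as a block gave 0, DESeq2 gave 6, and leaving out single libraries gave 0 to 2. The causes were not tested. The replicate block left the counts at 0 for the clones together against the 'control' line and for the clones against each other, and it added the call of *Rpl39* in clone 2 against the 'control' line. No paired analysis was possible for MEF because its passages are other numbers. For 53 differences of named genes, 969 of 1058 alternative values kept their direction and call, 68 lost the call, 21 gained one and 0 were reversed. Levels per kilobase moved with the length used, and the 4 genes at trace values are limited by counting.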
